A study of Mus musculus with 2 samples.

Results

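The set consisted of 33 mouse genes of double-strand break signalling and repair, listed by symbol out of 31053 genes in the count tables. The listing rule used no measured value, but earlier results of these data were known when the members were chosen. All 33 were present once in the gene lists and had UMIs (unique molecular identifiers, each marking 1 captured transcript) in both libraries. By role, 15 belonged to break sensing and signalling, 7 to non-homologous end joining and 11 to end resection and homologous recombination. The libraries came from dissociated kidney cortex of 12-week-old mice and were made with a droplet assay that reads the 3′ ends of transcripts. There was 1 library labelled Pod-I_Ppo-1, from mice with podocyte-specific expression of I-PpoI, an endonuclease that cuts both DNA strands at its recognition site, and 1 labelled Wild-Type. The labels name no promoter for the I-PpoI gene and no strain, and they do not give how many mice were pooled. Podocytes, the cells of the glomerular filter in which the enzyme was expressed, were nearly absent from both cell suspensions. UMIs of at least 5 of 9 podocyte markers were found in only 4 of the 3949 cells of the I-PpoI library and in 0 of the 3094 cells of the wild-type library, so the results below are about the other cells of the cortex.

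Double-strand breaks are recognised by the complex of Mre11a, Rad50 and Nbn and by the Ku heterodimer of Xrcc5 and Xrcc6. The kinases Atm and Atr then phosphorylate the histone variant encoded by H2afx, which brings Mdc1, the ubiquitin ligases Rnf8 and Rnf168, and Trp53bp1 with Rif1 to the break. Ends are either joined directly, with Prkdc, Dclre1c, Xrcc4, Nhej1 and Lig4, or cut back by Rbbp8 and Exo1 and repaired from a sister chromatid with Brca1, Bard1, Palb2, Brca2, Rad52 and Rad54l. The second route needs a replicated chromosome and is known for its use in dividing cells, while end joining serves resting cells such as most of those in the adult kidney. These proteins are regulated largely after translation, by phosphorylation and ubiquitination, and mRNA counts say nothing of that layer.

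The I-PpoI library held 37811289 UMIs over 5268 barcodes and the wild-type library 27793633 UMIs over 5536 barcodes, of which 3949 and 3094 cells were kept. Cells of the I-PpoI library were deeper, with a median of 6647 UMIs against 3486.5, and mitochondrially encoded genes took a smaller part of them, a median of 3.31% against 14.3%. The libraries shared 6 barcodes, 3 of them among the cells kept. Clustering, done without the 33 genes, gave 14 classes named from markers as "X-like", of which 7 had at least 50 non-cycling cells in both libraries. Levels are CPM, the UMIs of a gene per 1000000 UMIs of the summed cells of a class. Intervals are of 95% and cover counting error only. With 1 library per group no difference has a replicate check, and no test was possible. The members were sparsely counted: summed over all 33 they took 13324 UMIs (380 CPM) in the I-PpoI library and 7041 UMIs (359 CPM) in the wild-type library. Polq, the polymerase of theta-mediated end joining, had the fewest, 15 and 4, and 7 members in I-PpoI cells and 11 in wild-type cells had under 100 UMIs.

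Cycling cells of the I-PpoI library carried most of that library's counts of several recombination genes. A cell was called cycling when it held UMIs of at least 3 different genes of a cell cycle list, on which none of the 33 genes stands. This gave 121 of 3949 cells in the I-PpoI library (3.06%, exact binomial interval 2.55 to 3.65%) and 18 of 3094 in the wild-type library (0.582%, 0.345 to 0.918%). Cycling cells were deeper, with median UMI counts of 17223 in the I-PpoI library and 16621.5 in the wild-type library, against 6516.5 and 3477 in non-cycling cells. After thinning every cell to 2000 UMIs, which left out 690 I-PpoI and 908 wild-type cells as too shallow, the shares were 1.47% (48 of 3259 cells) and 0.229% (5 of 2186 cells). The call is a range rather than a cell type, since 37 I-PpoI cells and 4 wild-type cells held exactly 3 of the genes and 151 and 46 held 1 fewer.
In the I-PpoI library, 10 of the 32 members with at least 20 UMIs were at least 2-fold higher in cycling than in non-cycling cells, each with an interval above 1, and 0 were 2-fold lower. Over all 14851 genes measured in the same way, whatever their intervals, 5.81% were at least 2-fold higher and 11.9% at least 2-fold lower. Among the signalling genes, H2afx, the gene of the histone variant, had 286 and 416 UMIs (104 and 12.9 CPM) in cycling and non-cycling cells, a ratio of 8.06 (6.91 to 9.39). Chek1, a checkpoint kinase activated by Atr, had 24 and 23 UMIs, a ratio of 12.2 (6.61 to 22.7), so 51.1% of its UMIs lay in cycling cells. Chek2, the kinase activated by Atm, was at 13.8 and 5.79 CPM, a ratio of 2.38 (1.63 to 3.39). None of the 7 end joining genes passed the 2-fold limit. The closest was Xrcc6, the smaller Ku subunit gene, at 15.3 and 7.87 CPM and a ratio of 1.94 (1.36 to 2.69), and Dclre1c, a nuclease that opens hairpin ends, was at 10.2 and 14.7 CPM.

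Of the 10 measured recombination genes, 7 passed the 2-fold limit and 3 did not. Brca1, a ubiquitin ligase that promotes resection and recombination, had 49 and 20 UMIs (17.8 and 0.620 CPM) in cycling and non-cycling I-PpoI cells, a ratio of 28.7 (16.8 to 51.0). Its partner Bard1 had 17 and 30 UMIs, a ratio of 6.64 (3.44 to 12.4). The DNA translocase gene Rad54l had 25 and 20 UMIs and a ratio of 14.7 (7.81 to 27.8), and the exonuclease gene Exo1 had 15 and 12 UMIs and a ratio of 14.7 (6.40 to 34.3). Cycling cells, 3.06% of all cells, thus held 71.0% of the Brca1 UMIs and 55.6% of those of Rad54l and of Exo1. Unlike the ratios in CPM, these shares are not corrected for the greater depth of cycling cells (median 17223 UMIs against 6516.5). Brca2, which loads the recombinase, was at 23.2 and 5.98 CPM, a ratio of 3.89 (2.88 to 5.18), and Palb2, which links it to Brca1, at 6.90 and 2.88 CPM, a ratio of 2.39 (1.38 to 3.95). Rpa2, a subunit of the single-strand binding protein, was at 27.6 and 7.59 CPM, a ratio of 3.64 (2.77 to 4.72), while its partner Rpa1 was at 25.1 and 13.4 CPM, a ratio of 1.87 (1.43 to 2.42). Rbbp8, which starts the resection of ends, was at 30.9 and 23.4 CPM, a ratio of 1.32 (1.04 to 1.65), and Rad52, an annealing factor, at 3.63 and 4.71 CPM, a ratio of 0.771 (0.362 to 1.46). Polq had 11 and 4 UMIs, too few to be counted as measured.

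Wild-type cycling cells numbered 18, under the 20 set for a comparison, and their values are given for description only. H2afx was at 52.9 and 11.7 CPM in cycling and non-cycling wild-type cells. Brca1 had 5 and 6 UMIs, Chek1 6 and 7, Exo1 5 and 2 and Rad54l 2 and 9, in cycling and non-cycling cells. For these 5 genes the level in CPM was higher in the cycling cells of both libraries, although the wild-type interval of the Rad54l ratio, 0.784 to 36.0, includes 1.

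**Figure D1:**
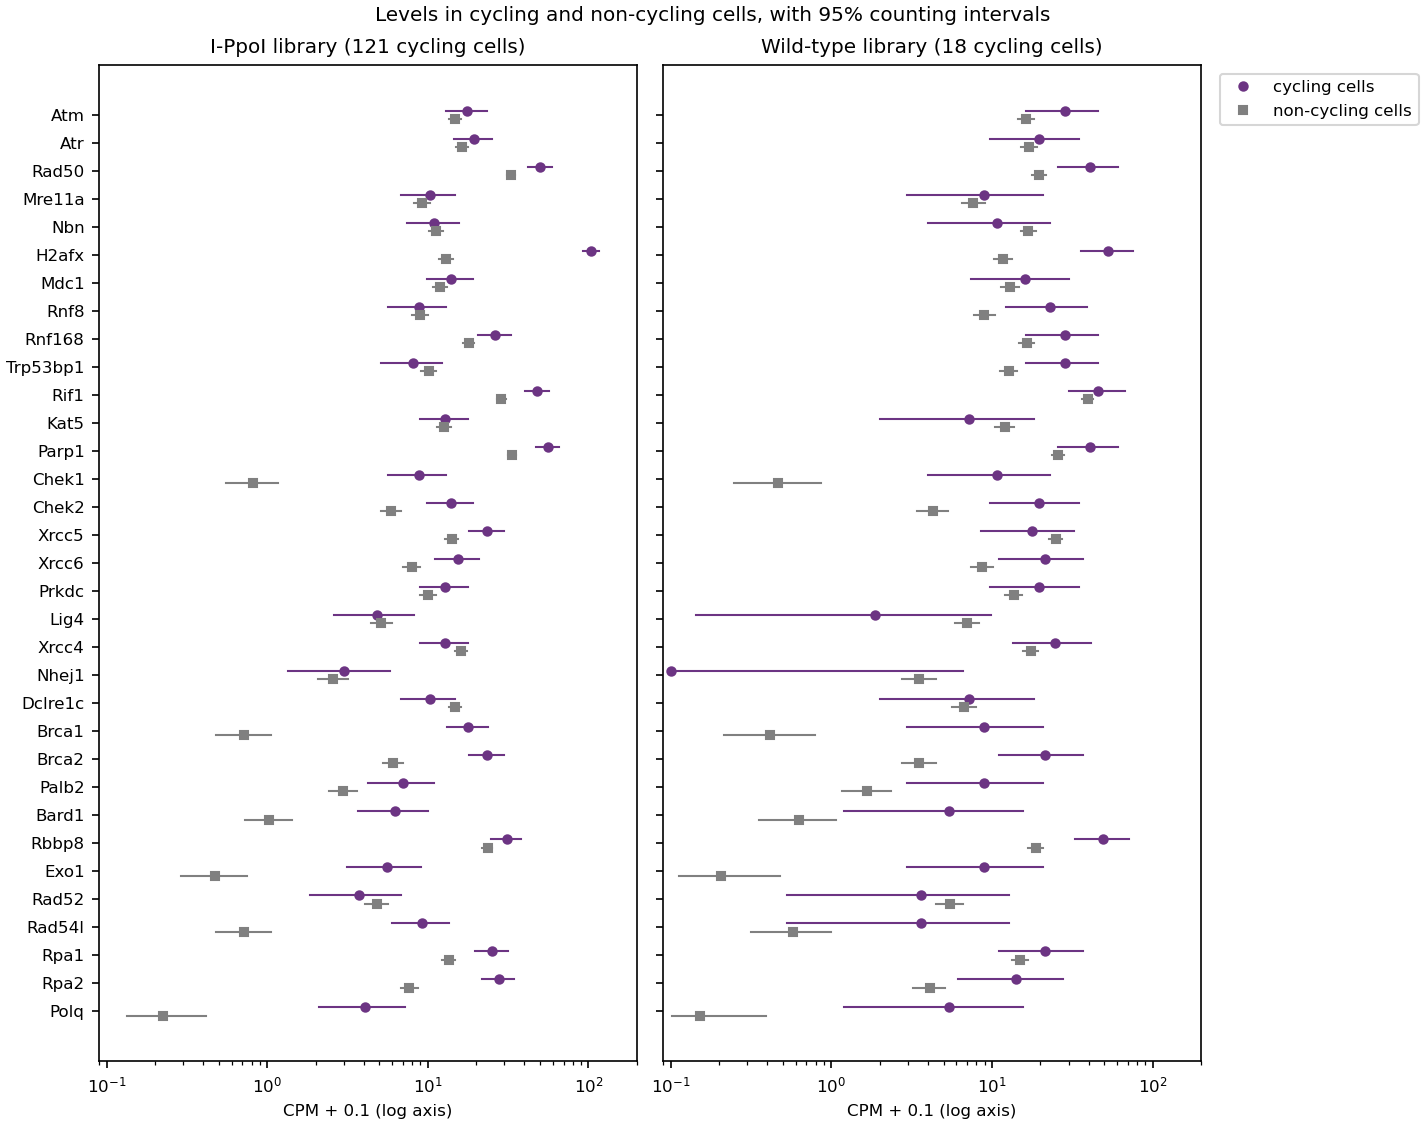
Level of each of the 33 genes (CPM with 0.1 added, log axis) in cycling cells (purple circles) and non-cycling cells (grey squares) of the I-PpoI library (left) and the wild-type library (right), with 95% Poisson intervals for counting error. Among genes with at least 20 UMIs in the I-PpoI library, Brca1, Rad54l, Exo1 and Chek1 are the farthest apart, with ratios of 12.2 to 28.7.

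Much of this contrast lay in a single cluster, led by Mki67, Top2a, Birc5 and histone genes together with the granulocyte precursor genes Ngp and Camp, and left unnamed. It held 50 I-PpoI cells, 46 of them cycling, and 9 wild-type cells, 8 of them cycling. H2afx was at 273 CPM (239 to 310, 238 UMIs) in its I-PpoI cells and 173 CPM (104 to 270, 19 UMIs) in its wild-type cells. Brca1 was at 44.7 CPM (31.8 to 61.1, 39 UMIs) in I-PpoI cells and 36.4 CPM (9.93 to 93.3, 4 UMIs) in wild-type cells. In the 63 cycling I-PpoI cells of named classes the ratios were smaller for all 10 genes. There 6 of 31 measured members were at least 2-fold higher and 0 lower, and 7.12% of all genes measured were at least 2-fold higher and 14.4% at least 2-fold lower. Brca1 was at a ratio of 10.4 (4.25 to 24.0), Chek1 at 7.23 (2.93 to 16.3), Rad54l at 6.51 (2.31 to 16.2), Rpa2 at 3.21 (2.24 to 4.49) and Xrcc5 at 2.25 (1.68 to 2.98). The remaining member past 2-fold was Nhej1, an end joining gene like Xrcc5, at 2.02 (0.839 to 4.20), an interval that includes 1. H2afx was at 1.90 (1.34 to 2.63) there and Brca2 at 1.96 (1.19 to 3.09), while Chek2 at 0.898 (0.404 to 1.74), Palb2 at 0.803 (0.214 to 2.13) and Bard1 at 1.18 (0.136 to 4.64) had intervals that include 1. The mix of cell types differed between cycling and non-cycling cells, and its part in these ratios was not tested.

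Within a class, macrophage-like cells of the I-PpoI library alone had enough cycling cells, 23 of 1389. In this comparison 5 of 26 members were at least 2-fold higher and 3 at least 2-fold lower, against 8.88% and 17.2% of all genes. Rpa2 was the 1 member whose interval excluded 1 past that limit, at 68.7 and 8.97 CPM in cycling and non-cycling macrophage-like cells (21 and 101 UMIs), a ratio of 7.65 (4.54 to 12.3). H2afx had 3 and 106 UMIs there, a ratio of 1.04 (0.211 to 3.13), so a change of either direction lies within counting error.

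Promoter sequences are shown because several recombination genes were high in the same cells, and E2F factors are known to act on genes of DNA replication. RefSeq promoters (build GRCm38.p6, 250 bases before to 50 after a start) were matched by symbol for 26 of the 33 genes, giving 29 promoters. For E2F factors the word TTCCCGC was searched, then the word TTGGCGC, then the word TTCGCGC and last the word TTGCCGC. The NF-Y box was searched as CCAAT, and the cell cycle genes homology region as TTTGAA or by the word TTCGAA, all of them on both strands. At least 1 E2F word stood in 16 of the 29 promoters (55.2%), against 3145 of 32851 promoters of all genes (9.57%). CCAAT stood in 15 (51.7%, against 37.4% of all promoters) and a homology region word in 5 (17.2%, against 19.2%). Of the 9 promoters of members at least 2-fold higher in cycling I-PpoI cells, 6 held an E2F word, and so did 10 of the 20 promoters of the other members. Promoters were not matched for base composition.

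Brca1, Chek1 and Bard1 are shown as genes high in cycling cells whose promoters hold an E2F word, Rad54l as a gene high in cycling cells without one, and Xrcc5 as an end joining gene without one. Of the other end joining genes with a promoter, Xrcc6, Lig4 and Xrcc4 held an E2F word and Nhej1 and Dclre1c did not. Capitals mark matches on either strand, and no marked matches overlap: in Brca1 a CCAAT and an E2F word read on the other strand, in Chek1 an E2F word on the other strand at the end of the window, in Bard1 a homology region word and an E2F word, in Rad54l a CCAAT, and in Xrcc5 a CCAAT on the other strand. A match is a string of letters and not a shown binding site. The promoters lie at chr11:101551906-101552205 (minus strand) for Brca1, chr9:36726609-36726908 (minus) for Chek1, chr1:71102923-71103222 (minus) for Bard1, chr4:116123641-116123940 (minus) for Rad54l and chr1:72307171-72307470 (plus) for Xrcc5.
Brca1: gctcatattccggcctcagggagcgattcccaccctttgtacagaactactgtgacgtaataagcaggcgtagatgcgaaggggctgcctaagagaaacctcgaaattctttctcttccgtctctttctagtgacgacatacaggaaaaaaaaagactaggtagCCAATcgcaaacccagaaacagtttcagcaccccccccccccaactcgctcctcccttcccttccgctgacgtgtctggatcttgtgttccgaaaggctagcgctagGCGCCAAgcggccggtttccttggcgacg
Chek1: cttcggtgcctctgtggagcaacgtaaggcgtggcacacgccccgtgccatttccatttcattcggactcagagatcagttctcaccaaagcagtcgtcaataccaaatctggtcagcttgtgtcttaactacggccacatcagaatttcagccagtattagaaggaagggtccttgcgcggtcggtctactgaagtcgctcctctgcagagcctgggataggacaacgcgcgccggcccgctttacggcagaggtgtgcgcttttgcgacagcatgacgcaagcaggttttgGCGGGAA
Bard1: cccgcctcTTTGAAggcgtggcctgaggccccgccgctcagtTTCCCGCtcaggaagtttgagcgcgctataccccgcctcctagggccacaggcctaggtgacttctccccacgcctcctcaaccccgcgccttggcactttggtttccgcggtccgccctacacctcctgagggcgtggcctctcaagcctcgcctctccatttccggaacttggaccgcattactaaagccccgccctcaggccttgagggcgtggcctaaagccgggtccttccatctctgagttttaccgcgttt
Rad54l: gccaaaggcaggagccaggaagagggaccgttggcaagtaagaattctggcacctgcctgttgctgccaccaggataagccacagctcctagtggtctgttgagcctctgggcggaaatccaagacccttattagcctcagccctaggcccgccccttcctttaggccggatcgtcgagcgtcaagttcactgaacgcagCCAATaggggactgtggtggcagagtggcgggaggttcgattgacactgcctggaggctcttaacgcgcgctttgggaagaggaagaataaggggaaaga
Xrcc5: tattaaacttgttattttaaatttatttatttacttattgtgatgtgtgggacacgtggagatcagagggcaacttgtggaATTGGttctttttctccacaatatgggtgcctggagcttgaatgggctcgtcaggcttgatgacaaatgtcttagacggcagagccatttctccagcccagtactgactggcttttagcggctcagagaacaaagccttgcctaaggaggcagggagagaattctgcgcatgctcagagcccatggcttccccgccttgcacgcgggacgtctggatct

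In non-cycling cells a few members were set apart by class in both libraries. A gene was read as set apart when its level in a class was at least 2-fold above or below that in all other named classes together, in both libraries and whatever its interval, and 27 members were among the 13050 genes measured for this. In macrophage-like cells 3 members stood higher (Parp1, Dclre1c and Palb2) and 2 lower (Xrcc5 and Lig4), where 6.41% of all genes were higher and 34.3% lower. In T cell-like cells 3 were higher (Atm, Rad50 and Rpa2) and 0 lower, with 7.00% and 33.0% of all genes. The other classes set apart at most 1 member on the higher side: Xrcc5 in proximal tubule-like cells (8.19% of all genes), Rad52 in principal-like cells (7.20%) and Rnf168, a histone ubiquitin ligase gene, in endothelial-like cells (15.1%), with 0 in thick ascending limb-like cells (5.05%) and in mesangial, mural and renin-like cells (9.92%). On the lower side, Xrcc5 stood in endothelial-like cells (19.4% of all genes), at a ratio of 0.445 (0.247 to 0.742) in the I-PpoI library and 0.373 (0.252 to 0.535) in the wild-type library. The other members on that side rested on few UMIs: Chek2 in thick ascending limb-like cells (19.3% of all genes) on 5 I-PpoI and 4 wild-type UMIs, and in mesangial, mural and renin-like cells (21.5%) Chek2 on 0 and 1, Palb2 on 0 and 0 and Rbbp8 on 3 and 4. The intervals of these ratios include 1 in both libraries for Chek2 and Palb2 and in the wild-type library for Rbbp8, so a lower level was not detectable for Chek2 and Palb2 at this depth. The wild-type intervals of Lig4 in macrophage-like cells, on 1 UMI, and of Rad50 in T cell-like cells, on 8 UMIs, include 1 as well. Proximal tubule-like and principal-like cells set 0 members lower, against 21.8% and 16.6% of all genes. Outside the higher sides of macrophage-like and T cell-like cells, the share of members set apart was under that of all genes.

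Xrcc5 (chr1:72307421-72394952, plus strand), the larger Ku subunit gene, was higher in proximal tubule-like cells than in the other named classes together in both libraries. In I-PpoI cells it was at 36.3 CPM in proximal tubule-like, 34.7 CPM in thick ascending limb-like and 27.1 CPM in principal-like cells, with overlapping intervals, and at 6.93 CPM in endothelial-like and 3.64 CPM in macrophage-like cells. In wild-type cells it was at 34.8 CPM in proximal tubule-like, 33.4 CPM in intercalated-like, 23.1 CPM in principal-like and 16.8 CPM in thick ascending limb-like cells, and at 15.4 CPM (3.18 to 45.0) in T cell-like, 10.9 CPM in macrophage-like and 10.4 CPM in endothelial-like cells. Proximal tubule-like cells over the other classes gave a ratio of 3.39 (2.79 to 4.12) in the I-PpoI library and 2.19 (1.80 to 2.68) in the wild-type library. The same ratio of thick ascending limb-like cells was 2.52 (1.88 to 3.34) in the I-PpoI library and 0.649 (0.435 to 0.935) in the wild-type library, on either side of 1. The wild-type proximal tubule-like clusters ran from 29.6 to 45.1 CPM. Xrcc6, whose product pairs with that of Xrcc5, was ordered differently in the libraries. Proximal tubule-like cells over the others gave a ratio of 1.29 (0.916 to 1.79) in the I-PpoI and 0.616 (0.436 to 0.862) in the wild-type library, and macrophage-like cells 0.825 (0.619 to 1.09) and 2.78 (1.55 to 4.68), where both I-PpoI intervals include 1.

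Dclre1c (chr2:3424131-3464130, plus strand), also known as Artemis, was highest in macrophage-like cells of both libraries among classes with at least 50 non-cycling cells. Outside that limit, the 12 wild-type neutrophil-like cells were at 135 CPM (43.8 to 315, 5 UMIs). Dclre1c was at 31.0 CPM (27.8 to 34.4, 349 UMIs) in I-PpoI and 30.1 CPM (18.9 to 45.5, 22 UMIs) in wild-type macrophage-like cells. Within the limit, this interval did not overlap that of the class next in order in either library. The ratio over the other classes was 5.72 (4.56 to 7.24) in the I-PpoI library and 5.27 (3.16 to 8.42) in the wild-type library. In the I-PpoI macrophage-like clusters it was at 28.3 CPM in the one led by H2-Eb1 and Cd74, 29.2 CPM in that led by Cd83 and Ccl4, and 47.0 CPM (36.4 to 59.6) in that led by Ccl8 and Cd163. Parp1 (chr1:180568924-180601254, plus strand), the sensor that marks breaks with poly(ADP-ribose), was also highest in macrophage-like cells among these larger classes. It was at 50.3 CPM (46.2 to 54.6, 566 UMIs) in I-PpoI and 60.2 CPM (43.7 to 80.8, 44 UMIs) in wild-type cells, with intervals that overlapped the next class. The smaller B and plasma-like class held more, 55.4 CPM (31.7 to 90.0, 16 UMIs) in I-PpoI and 108 CPM (49.6 to 206, 9 UMIs) in wild-type cells. The Parp1 gene overlaps the exon of a microRNA on the same strand, so a part of its reads could not be assigned for certain. Palb2 was at 4.62 CPM (52 UMIs) in I-PpoI and 9.57 CPM (7 UMIs) in wild-type macrophage-like cells.

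T cell-like cells held the most Atm, at 47.2 CPM (33.6 to 64.5, 39 UMIs) in the I-PpoI library and 56.5 CPM (28.2 to 101, 11 UMIs) in the wild-type library. Rad50 (chr11:53649519-53707319, minus strand), the coiled-coil subunit of the break sensor complex, was at 73.8 CPM (56.5 to 94.8, 61 UMIs) and 41.1 CPM (17.7 to 80.9, 8 UMIs) in them. Among classes with at least 50 non-cycling cells, the I-PpoI intervals of both genes did not overlap the class next in order, and the wild-type intervals did. Outside that limit, the 45 intercalated-like I-PpoI cells held Rad50 at 52.4 CPM (39.1 to 69.0), which overlaps the T cell-like interval. Rpa2 was at 32.7 CPM (21.5 to 47.6, 27 UMIs) in I-PpoI and 25.7 CPM (8.33 to 59.9, 5 UMIs) in wild-type T cell-like cells. The wild-type class had 60 cells, and these wild-type values rest on 5 to 11 UMIs a gene.

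**Figure D2:**
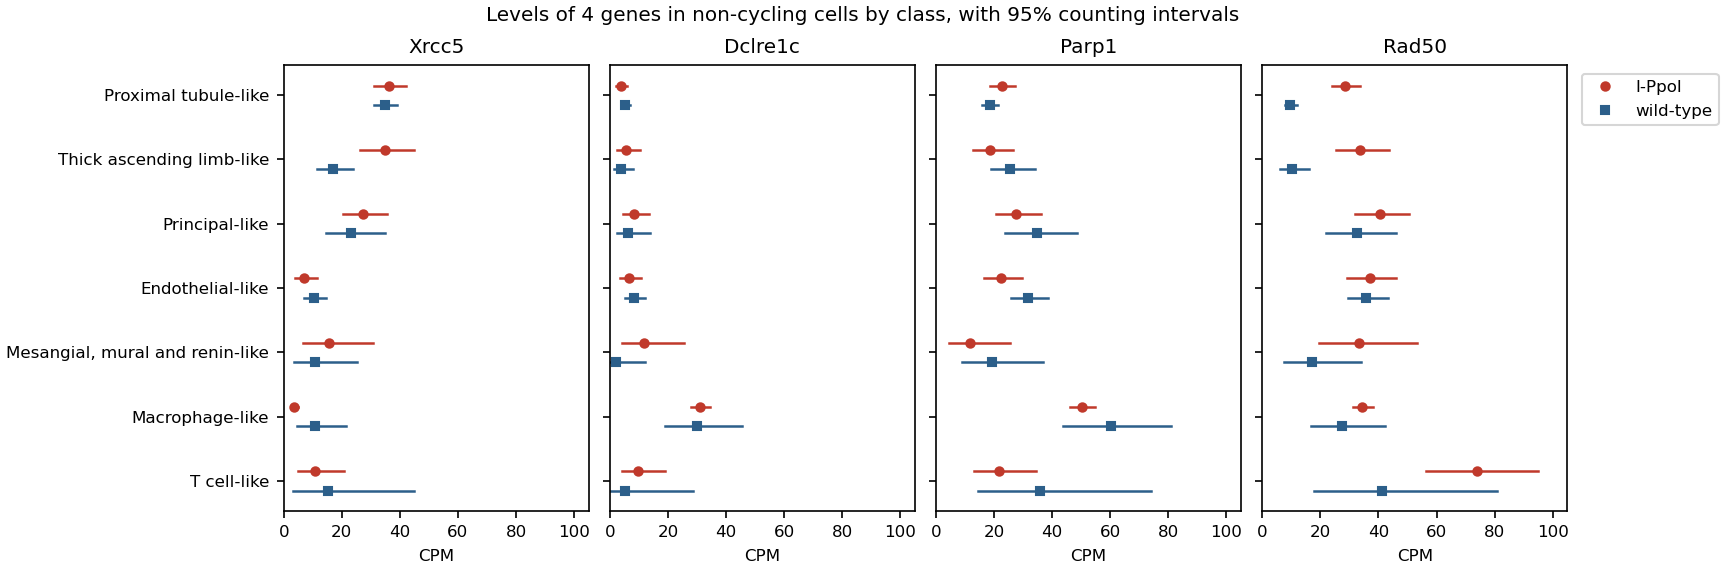
Levels in CPM of Xrcc5, Dclre1c, Parp1 and Rad50 in non-cycling cells of the 7 compared classes (rows), for the I-PpoI library (red circles) and the wild-type library (blue squares), with 95% Poisson intervals. Dclre1c and Parp1 are highest in macrophage-like cells of both libraries, Xrcc5 is high in proximal tubule-like and low in macrophage-like and endothelial-like cells, and Rad50 lies lowest in the wild-type proximal tubule-like and thick ascending limb-like cells.

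Other members of high count were less bound to a class. Rif1, which shields ends from resection, was at 52.8 CPM in mesangial, mural and renin-like, 52.1 CPM in T cell-like, 51.8 CPM in endothelial-like, 47.3 CPM in thick ascending limb-like, 40.4 CPM in principal-like, 29.1 CPM in proximal tubule-like and 19.7 CPM in macrophage-like I-PpoI cells. In the same classes of the wild-type library it was at 60.3, 56.5, 70.1, 35.8, 48.3, 26.9 and 20.5 CPM, so macrophage-like cells were lowest in both. Rbbp8, the resection factor also called CtIP, was highest in intercalated-like cells of both libraries. It was at 51.4 CPM (38.2 to 67.8, 50 UMIs) in the 45 I-PpoI cells of that class. In its wild-type cells it was at 58.9 CPM (44.9 to 75.8, 60 UMIs). Thick ascending limb-like cells came next in the I-PpoI library, at 42.5 CPM (33.2 to 53.7, 71 UMIs). The highest class overlapped the next in each library. Over all members, levels were ordered among classes with at least 50 non-cycling cells, without erythroid-like cells. The class of highest level was then separate from the next for Atm, Rad50, Dclre1c and Rpa2 in the I-PpoI library. In the wild-type library this held for Dclre1c alone. Rpa2 in I-PpoI erythroid-like cells was at 15.4 CPM (4.19 to 39.3, 4 UMIs), which overlaps its T cell-like interval.

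**Figure D3:**
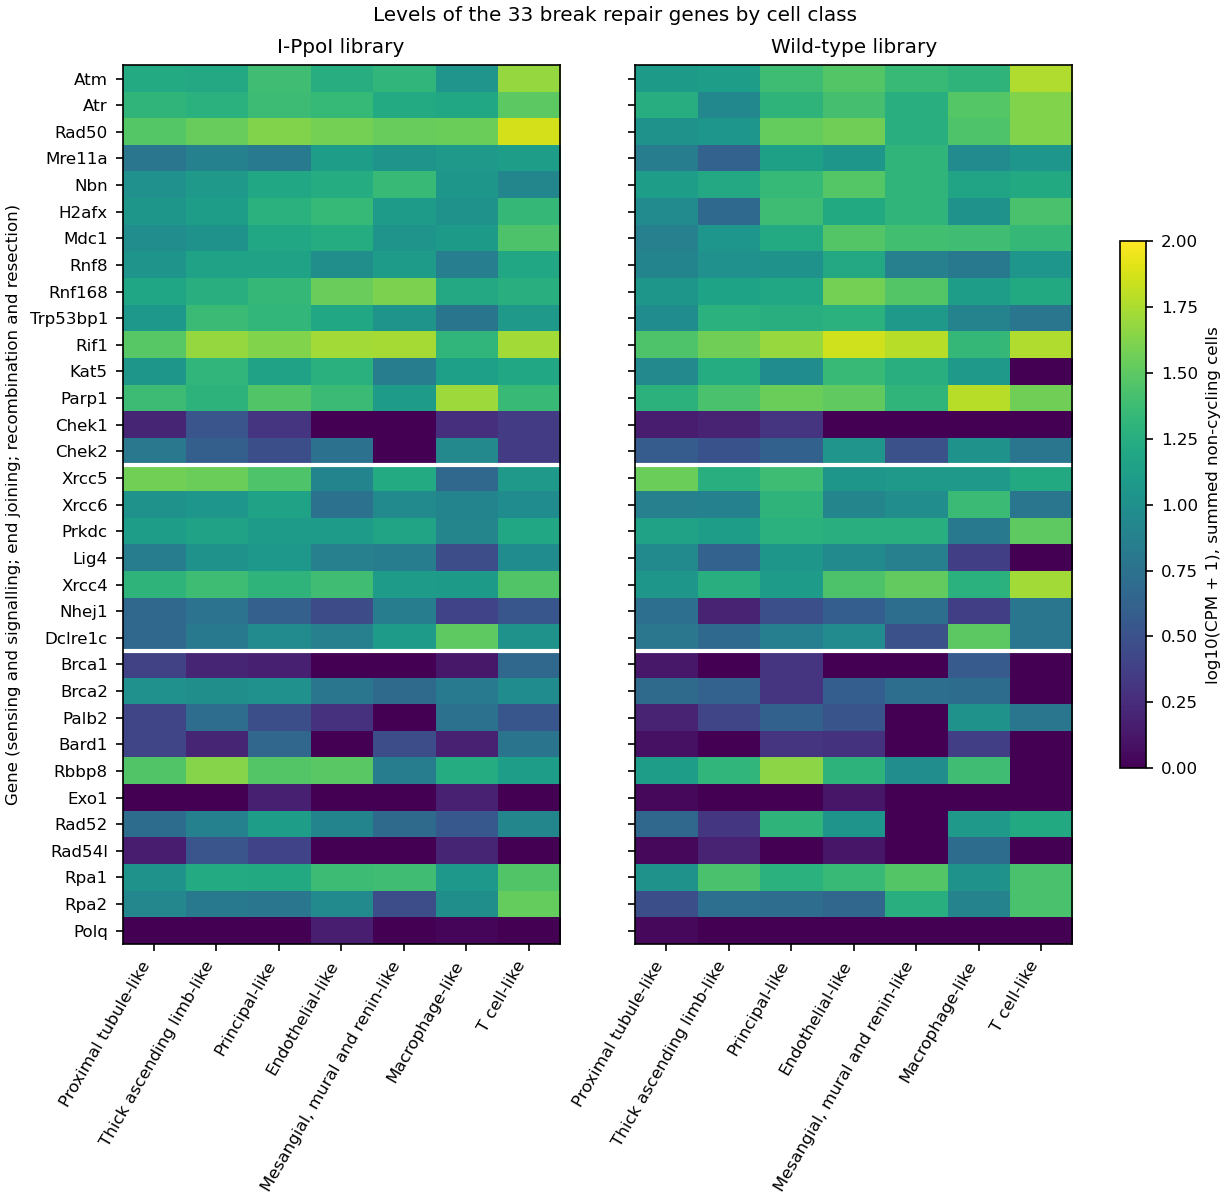
Level of each of the 33 genes (rows, in the order of sensing and signalling, end joining, and recombination and resection, split by white lines) in non-cycling cells of the 7 compared classes (columns) of the I-PpoI library (left) and the wild-type library (right). Colour is log10(CPM + 1), and Chek1, Brca1, Bard1, Exo1, Rad54l and Polq are near 0 in both libraries.

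The labels imply a comparison of each class between the libraries. Of the 33 members, 27 had at least 20 UMIs over both libraries in some compared class, giving 136 gene and class pairs, and 17 pairs (12.5%) were at least 2-fold apart with an interval that excluded 1, against 18.1% of the pairs of all genes measured. Chek1, Brca1, Bard1, Exo1, Rad54l and Polq were measured in no class once cycling cells were set aside. The median log2 ratio of the measured members, I-PpoI over wild-type, was 0.36 in proximal tubule-like, 0.39 in thick ascending limb-like, -0.05 in principal-like, -0.31 in endothelial-like, -0.14 in mesangial, mural and renin-like, -0.20 in macrophage-like and -0.23 in T cell-like cells. For all genes measured the medians were 0.41, 0.46, 0.03, -0.03, -0.03, -0.05 and -0.04 in the same order. The members' median minus that of all genes was -0.27 in endothelial-like cells, the widest gap, with 18 of 25 members below a ratio of 1, and -0.05 in proximal tubule-like cells, the narrowest. Its sign varied with the processing in thick ascending limb-like, principal-like, mesangial, mural and renin-like and T cell-like cells.

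**Figure D4:**
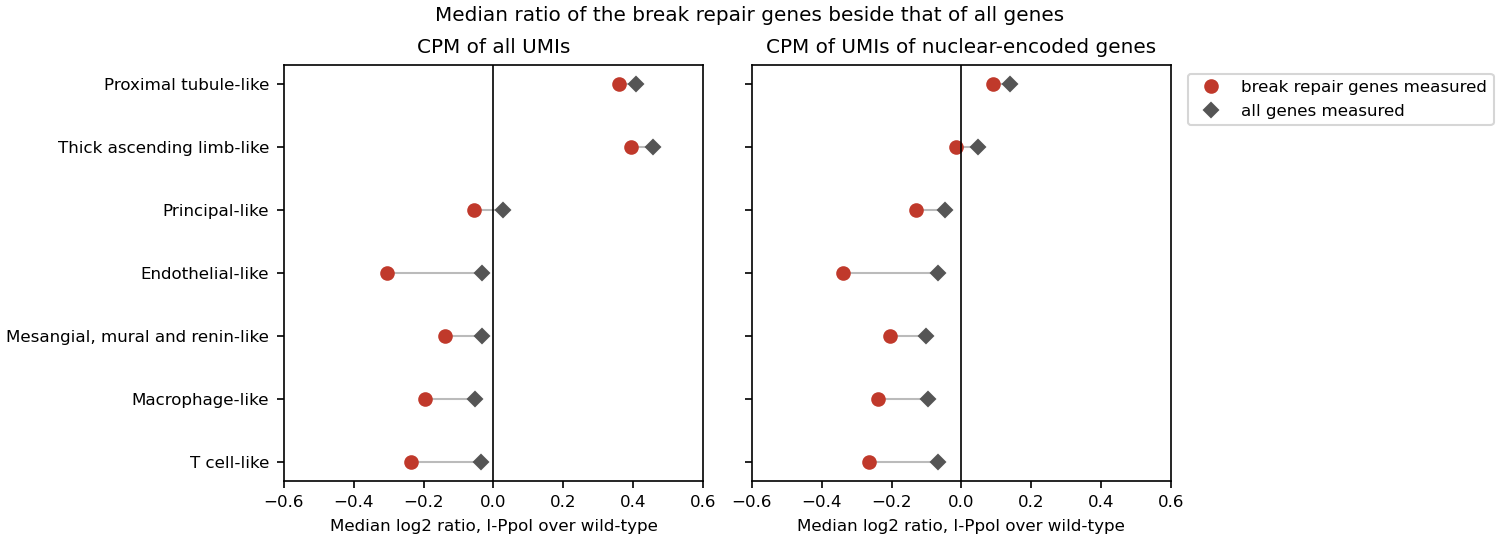
Median log2 ratio, I-PpoI over wild-type, of the break repair genes measured in each class (red circles) and of all genes measured (grey diamonds), with CPM of all UMIs (left) and CPM of nuclear-encoded genes (right). The medians of proximal tubule-like and thick ascending limb-like cells, 0.36 and 0.39 on the left, are at 0.09 and -0.02 on the right.

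In proximal tubule-like cells, 4 of 26 measured members were at least 2-fold higher in the I-PpoI library and 0 lower, where 25.3% of all genes were 2-fold higher and 6.86% lower, so the members were not above the background share. Rad50 had 139 and 86 UMIs (28.5 and 9.61 CPM) in I-PpoI and wild-type cells, a ratio of 2.97 (2.25 to 3.93). Its partners in the sensor complex had other ratios, Mre11a of 0.866 (0.516 to 1.42) and Nbn of 0.758 (0.523 to 1.08). None of the 7 end joining genes passed the limit: they ran from Dclre1c at 0.703 (0.384 to 1.23) to Xrcc4, the ligase cofactor, at 1.82 (1.35 to 2.45), and Xrcc5, with the most UMIs, was at 1.05 (0.864 to 1.26). Of the recombination genes, Rbbp8 had 135 and 110 UMIs (27.7 and 12.3 CPM), a ratio of 2.25 (1.74 to 2.93). Brca2 had 45 and 35 UMIs, a ratio of 2.36 (1.48 to 3.78), and Rpa2 had 36 and 18 UMIs, a ratio of 3.67 (2.03 to 6.87). The other 15 of the 19 members above 1 stayed under 2-fold, and 7 were below 1.

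The proximal tubule-like class did not hold the same clusters in both libraries. In the I-PpoI library 376 of its 439 cells formed a cluster led by C3, Fgg, Fga and the injury marker Havcr1 that held 0 wild-type cells. Mitochondrially encoded genes took 9.95% of the UMIs of the class in I-PpoI cells and 25.2% in wild-type cells, and their part in the ratios was not tested. With nuclear-encoded genes alone as the total, Rad50 was at a ratio of 2.46, Rpa2 at 3.05, Brca2 at 1.96 and Rbbp8 at 1.87. Without the I-PpoI cluster, 62 I-PpoI cells and 1342 wild-type cells were left, where 6 of 26 measured members were at least 2-fold higher and 2 lower against 11.2% and 12.0% of all genes. The median log2 ratio was then 0.55 for the members and 0.24 for all genes, and Rad50 and Rpa2 were the members past 2-fold with intervals that exclude 1. Rad50 was then at 2.69 (1.19 to 5.34) with 9 and 86 UMIs, Rpa2 at 5.70 (1.40 to 17.3) with 4 and 18 UMIs, and Brca2 at 0.733 (0.0181 to 4.36) with 1 and 35 UMIs. Summed macrophage markers were at 1864 CPM in I-PpoI and 135 CPM in wild-type proximal tubule-like cells, and their part was not tested.

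In thick ascending limb-like cells, 7 of 20 members were at least 2-fold higher in the I-PpoI library and 0 lower, against 25.3% and 6.07% of all genes. Among the signalling genes, Rad50 had 56 and 19 UMIs (33.5 and 10.3 CPM), a ratio of 3.25 (1.90 to 5.80). H2afx had 20 and 7 UMIs, a ratio of 3.15 (1.28 to 8.82), and Atr, the kinase of replication stress, had 30 and 14 UMIs, a ratio of 2.36 (1.22 to 4.83). Of the end joining genes, Xrcc5 had 58 and 31 UMIs (34.7 and 16.8 CPM), a ratio of 2.06 (1.31 to 3.30), and Lig4, the ligase of the pathway, had 16 and 6 UMIs, a ratio of 2.94 (1.09 to 9.18). Rbbp8 had 71 and 36 UMIs, a ratio of 2.18 (1.44 to 3.35), and Brca2 15 and 6 UMIs, a ratio of 2.76 (1.01 to 8.68). The Atr gene shares exon sequence with a second annotated gene on its strand, which leaves its count uncertain.

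These ratios compare different clusters. All 139 non-cycling I-PpoI cells lay in a cluster led by Psca, Eprn and Umod, while 69 of the 245 wild-type cells, with 76.3% of the wild-type UMIs, lay in another, led by Egf, that held 0 I-PpoI cells. Within the cluster they shared, Rad50 was at 33.5 CPM (56 UMIs) in I-PpoI and 6.89 CPM (3 UMIs) in wild-type cells, and Xrcc5 at 34.7 CPM (58 UMIs) and 4.59 CPM (2 UMIs). The 176 wild-type cells of that cluster were shallow, with 23.7% of the wild-type UMIs of the class, and the part of depth was not tested. Parp1 was at 18.6 CPM (31 UMIs) in I-PpoI and 9.18 CPM (4 UMIs) in wild-type cells of that cluster, with overlapping intervals. The Egf cluster held 11.4 CPM of Rad50 and 20.6 CPM of Xrcc5. Mitochondrially encoded genes took 10.3% of the UMIs of the class in the I-PpoI library and 32.4% in the wild-type library. With nuclear-encoded genes as the total, 4 of 20 members were at least 2-fold higher and 1 lower, against 13.8% and 11.8% of all genes. Rad50 was at a ratio of 2.45, H2afx at 2.37 and Lig4 at 2.22, while Xrcc5 at 1.55, Rbbp8 at 1.64 and Atr at 1.78 were under 2-fold.

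**Figure D5:**
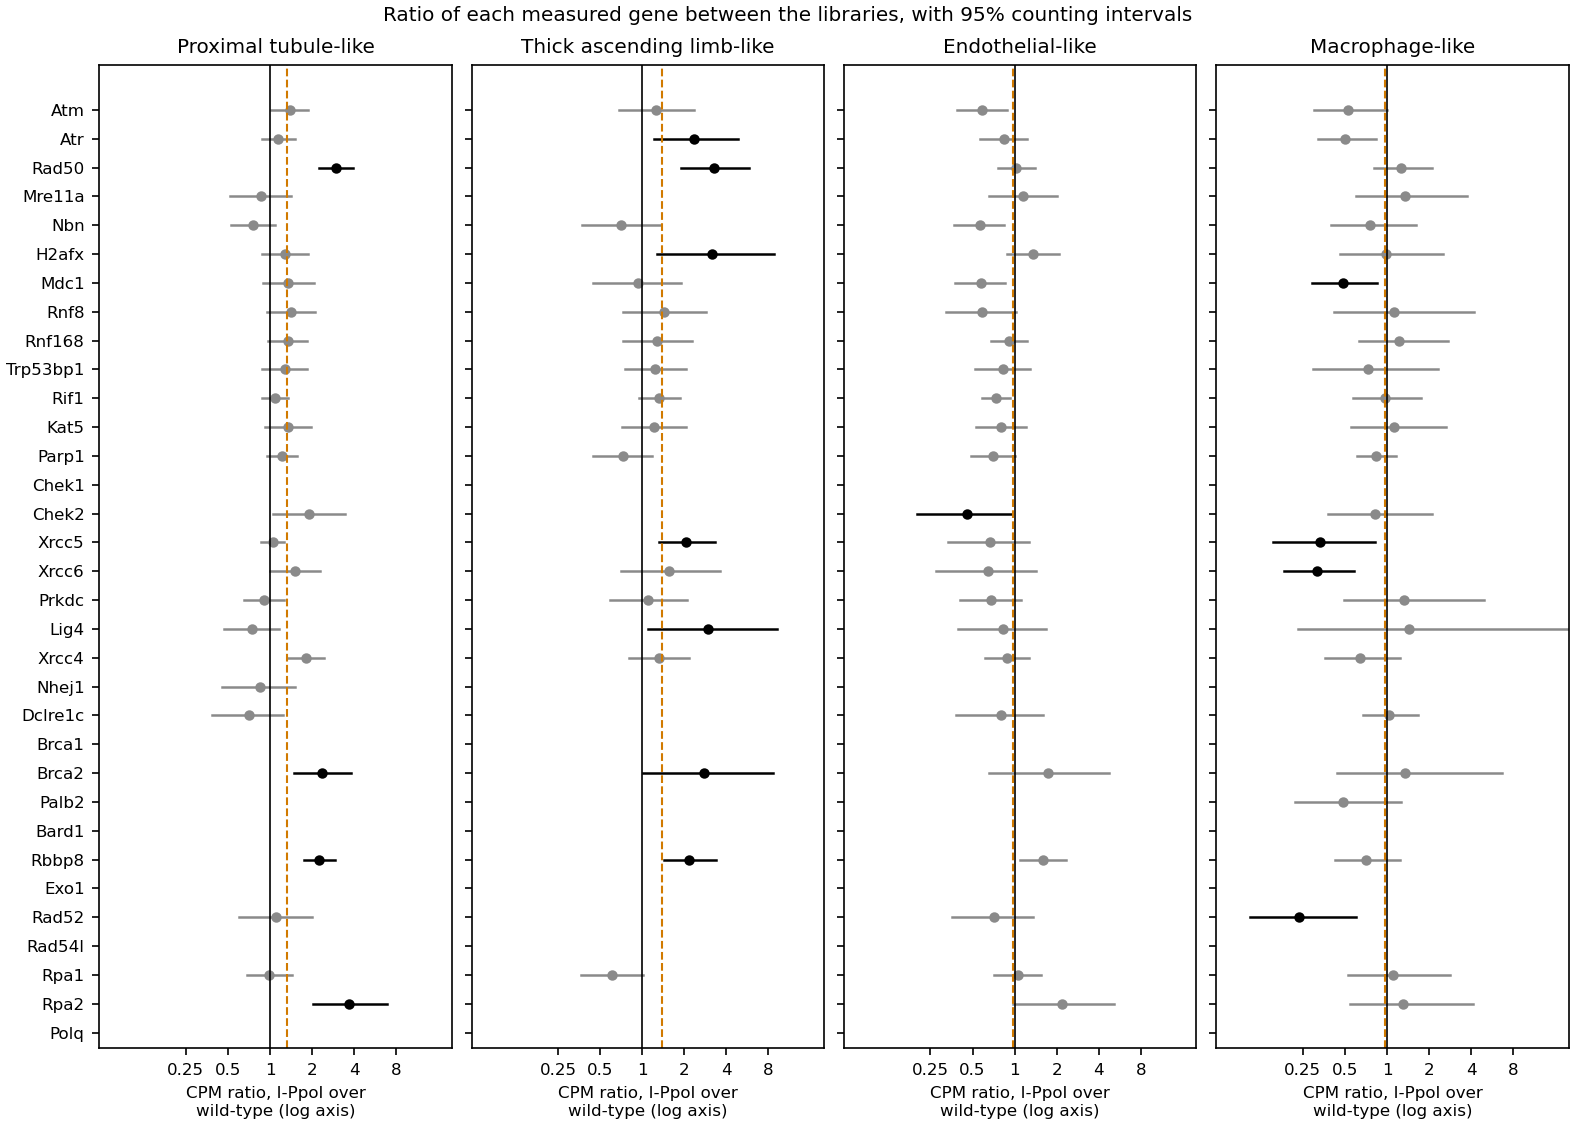
Ratio of each measured member, I-PpoI over wild-type (log axis), in proximal tubule-like, thick ascending limb-like, endothelial-like and macrophage-like cells, with exact 95% counting intervals cut off at the edge of the axis. Black points are at least 2-fold from 1 with intervals that exclude 1, grey points are the others, and the dashed orange line is the median of all genes measured in the class.

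Principal-like cells, a single cluster in both libraries, had 0 of 22 members at least 2-fold higher and 1 at least 2-fold lower, against 11.9% and 7.22% of all genes. That member, the nuclease gene Mre11a, had 11 and 12 UMIs, a ratio of 0.447 (0.179 to 1.11) whose interval includes 1. The intervals of 21 of the 22 members include 1, and the exception was Rbbp8 at 0.639 (0.420 to 0.978). Rad50 was at 1.24 (0.811 to 1.95). Mesangial, mural and renin-like cells had 7 measured members, 0 at least 2-fold higher and 1 lower, against 6.32% and 5.60% of all genes. That was Xrcc4, with 6 and 15 UMIs (11.7 and 32.3 CPM), a ratio of 0.364 (0.116 to 0.992). In T cell-like cells 0 of 10 members were 2-fold apart in either direction, against 13.5% higher and 5.82% lower of all genes, and every interval includes 1. Their widest ratios were Rad50 at 1.80 (0.857 to 4.35) and Xrcc4 at 0.542 (0.248 to 1.28), so changes past 2-fold lie within counting error for both.

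In endothelial-like cells 1 of 25 members was at least 2-fold higher and 1 lower, against 5.90% and 6.54% of all genes. Chek2 had 10 and 31 UMIs (4.62 and 10.1 CPM), a ratio of 0.458 (0.200 to 0.958), and Rpa2 had 17 and 11 UMIs, a ratio of 2.19 (0.969 to 5.18) that includes 1. Whatever the size of the ratio, 5 of 25 members had intervals below 1 and 1 above, against 19.1% and 16.5% of all genes. The members were thus near the background share on the lower side and under it on the higher side. Beside Chek2, those below were Atm at 0.587 (0.386 to 0.875), Nbn at 0.564 (0.370 to 0.843), the scaffold gene Mdc1 at 0.571 (0.374 to 0.854) and Rif1 at 0.739 (0.583 to 0.933). The member above was Rbbp8, at 1.59 (1.10 to 2.32). The class was spread over different clusters: 231 of 326 I-PpoI cells lay in one led by Lrg1 and Rgcc with 10 wild-type cells, and 423 of 654 wild-type cells in one led by Esm1 and Kdr with 23 I-PpoI cells. The cluster led by Sox17 and Cldn5 held both, with 52 I-PpoI and 66 wild-type cells, and there Rad50 was at 66.8 CPM (46.3 to 93.3) in I-PpoI and 33.0 CPM (19.6 to 52.2) in wild-type cells, with overlapping intervals. In the same cluster Parp1 was at 13.8 CPM (5.53 to 28.3) in I-PpoI and 40.4 CPM (25.3 to 61.1) in wild-type cells, also overlapping.

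In macrophage-like cells 0 of 26 members were at least 2-fold higher and 5 lower, against 13.5% and 7.92% of all genes. Both Ku genes were among the 5. Xrcc6 had 78 and 16 UMIs (6.93 and 21.9 CPM), a ratio of 0.317 (0.183 to 0.581), and Xrcc5 had 41 and 8 UMIs (3.64 and 10.9 CPM), a ratio of 0.333 (0.154 to 0.822). Rad52 had 29 and 8 UMIs, a ratio of 0.235 (0.105 to 0.596), and Mdc1 had 126 and 17 UMIs, a ratio of 0.481 (0.289 to 0.853). Palb2, at 0.483 (0.218 to 1.26), was past 2-fold with an interval that includes 1, and Atr was just under it at 0.504 (0.319 to 0.837). Dclre1c and Parp1, which among the 7 compared classes were highest in this one, were at 1.03 (0.670 to 1.67) and 0.836 (0.614 to 1.16).

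Of the macrophage-like cells, the cluster led by H2-Eb1 and Cd74 held 705 non-cycling I-PpoI and 163 wild-type cells, with 48.4% and 96.5% of the UMIs of the class. Within it Xrcc6 was at 7.53 CPM (5.40 to 10.2) in I-PpoI and 18.4 CPM (9.81 to 31.5) in wild-type cells, and Xrcc5 at 3.49 CPM (2.10 to 5.45) and 11.3 CPM (4.89 to 22.3). The intervals of Xrcc6 overlap slightly and so do those of Xrcc5. Rad52 was at 0.918 CPM (0.298 to 2.14, 5 UMIs) in I-PpoI and 11.3 CPM (4.89 to 22.3, 8 UMIs) in wild-type cells of that cluster, with intervals that do not overlap. Summed proximal tubule markers were at 310 CPM in I-PpoI and 701 CPM in wild-type macrophage-like cells, and Xrcc5 was high in proximal tubule-like cells. The part of such RNA in the ratios was not tested. The wild-type values of Xrcc6, Xrcc5, Rad52 and Mdc1 rest on 8 to 17 UMIs a gene.

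Rad50 was the 1 member measured in all 7 classes with every ratio above 1, from 1.03 in endothelial-like to 3.25 in thick ascending limb-like cells, and its interval excluded 1 in proximal tubule-like and thick ascending limb-like cells and included it in the other 5 classes. Brca2 and Rpa2 were above 1 in the 4 classes where each was measured. Atm, Rif1, Xrcc4 and Rpa1, also measured in all 7, lay on either side of 1.

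Further repair genes, from lists that leave out the 33, were read in the same cells. In proximal tubule-like cells 3 of 22 measured checkpoint and signalling genes were at least 2-fold higher and 1 lower, 4 of 18 other recombination genes higher and 1 lower, 3 of 13 other end joining genes higher and 0 lower, and 10 of 25 base and nucleotide excision genes higher and 0 lower. Of all genes 25.3% were higher and 6.86% lower in this class, so the counts of the checkpoint, recombination and end joining lists on the higher side were under or near the background. The checkpoint genes were Wee1, a kinase that holds cells before mitosis, at 4.03 (2.76 to 5.98), Trp53 at 2.98 (2.40 to 3.70), Atrip, the partner of Atr, at 2.45 (1.66 to 3.64), and Hus1, of the checkpoint clamp, at 0.484 (0.351 to 0.658). Of the excision genes, Lig1 was at 6.50 (3.45 to 13.1), Apex1 at 3.93 (3.15 to 4.93) and Parp2 at 3.72 (2.54 to 5.51). The p53 target list had 10 of 16 genes at least 2-fold higher and 0 lower, with Cdkn1a, an inhibitor of cell cycle kinases, at 341 and 21 UMIs and Gdf15, a stress-induced cytokine, at 1515 and 118 UMIs. The tubular injury list had 10 of 10 higher, with Spp1 at 145 (139 to 150).

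In thick ascending limb-like cells 5 of 19 checkpoint genes were at least 2-fold higher and 0 lower, with Wee1 at 4.89 (2.70 to 9.45) and Trp53 at 4.67 (2.52 to 9.31), and the p53 targets had 9 of 14 higher and 0 lower, against 25.3% and 6.07% of all genes. Wee1 was also higher in principal-like cells, at 9.92 (4.43 to 27.6), and in endothelial-like cells, at 3.78 (2.25 to 6.58). In macrophage-like cells 2 of 22 checkpoint genes were at least 2-fold higher and 3 lower, against 13.5% and 7.92% of all genes, with Rnf169, a regulator of ubiquitin signals at breaks, at 4.62 (2.23 to 11.6) and Trp53 at 0.485 (0.366 to 0.656). The p53 targets had 8 of 15 genes higher and 2 lower in principal-like cells, where 11.9% and 7.22% of all genes were. They had 7 of 16 higher and 0 lower in endothelial-like cells, against 5.90% and 6.54% of all genes, and 6 of 16 higher and 1 lower in macrophage-like cells. Btg2, on this list, is also an immediate early gene, and the dissociation of tissue is known to induce such genes. Genes of the tubular injury list were higher in other I-PpoI classes too. In thick ascending limb-like cells Lcn2 had 7477 and 16 UMIs in I-PpoI and wild-type cells, Krt19 195 and 0, and Clu 2505 and 46. In principal-like cells Lcn2 had 10439 and 330 UMIs, Krt19 888 and 6, and Sox9 207 and 0. The rest of that list is not given for these classes, and its part in the ratios of the members was not tested.

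The cells in which I-PpoI was expressed could not be described. The 4 podocyte marker-positive cells, all of the I-PpoI library, held 101682 UMIs, of which 46 came from 21 of the 33 genes. Nphs1, the gene of nephrin, had 99 UMIs in the cells of the I-PpoI library and 26 in those of the wild-type library.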

How the data were processed

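UMI counts per gene and barcode of 1 Pod-I-PpoI and 1 wild-type library were taken as deposited. The authors used a 3′ kit of version 3.1, and Cell Ranger is given as version 3.1 per the labels and 6.0.2 per the file headers. Barcodes with at least 200 genes and at most 50% mitochondrial UMIs were kept. The automatic Scrublet limit marked 0.733% of I-PpoI and 0.155% of wild-type barcodes, so the top 4% of scores were left out in both. Cells were clustered (scanpy 1.11.5, leidenalg 0.10.2, 2000 variable genes, 30 components, resolution 1) and clusters named from at least 3 markers at 25 CPM and 4-fold over the median cluster, limits set after seeing the data. UMIs were summed per class. Levels have exact Poisson and ratios exact Clopper-Pearson intervals (scipy 1.17.1), checked on simulated data. Medians used 0.5 added counts. A gene was measured with at least 20 UMIs over both groups compared. Members and further lists were chosen with earlier results of these data known. Members past 2-fold with intervals excluding 1 and the 5 of highest count are named, and of other lists at most 4 genes. Depth limits precision: 37811289 UMIs in the I-PpoI and 27793633 in the wild-type library. PCR and capture are not covered by the intervals. Atr, Rnf8, Parp1 and Rpa1 share same-strand exon positions with another gene in GENCODE M21. Comparing cycling with non-cycling cells over whole libraries was an alternative chosen after seeing the data.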

Additional observations from a re-analysis of the deposited data

Results flagged for a closer look

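Xrcc5, the larger Ku subunit gene, differed between the libraries in opposite directions in 2 cell classes. Its log2 ratio, I-PpoI over wild-type, was 1.03 in thick ascending limb-like cells and -1.66 in macrophage-like cells, a difference of 2.69. With 1 library per group the difference was not tested.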

How the results depend on the processing

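No paired analysis was possible because each group had 1 library. For the same reason no replicate could be left out. Of the median ratios recomputed, 86 moved by less than their spread and 8 by more. The ratios of single genes in cycling over non-cycling cells were less stable: 20 moved, 2 reversed and 29 stayed the same. Counts of members moved in 51 cases and stayed the same in 123. Ratios of single genes between the libraries moved in 12 cases and stayed the same in 180. Values of single genes by class moved in 5 cases and stayed the same in 56. In proximal tubule-like cells the median log2 ratio of the members, 0.36, was -0.034 with median-ratio scaling and -0.0028 with cells named by their own marker score. In thick ascending limb-like cells it was 0.39, against -0.016 with nuclear-encoded totals, -0.059 with median-ratio scaling, 0.0085 with a mitochondrial limit of 25% and 0.13 with cells named by marker score. As a mean over cells it was -0.091 in proximal tubule-like cells without the I-PpoI cluster, where it had been 0.55, and -0.13 in endothelial-like cells, where it had been -0.31. Over all settings, members at least 2-fold higher numbered 1 to 8 in proximal tubule-like and 2 to 15 in thick ascending limb-like cells, and members lower 3 to 8 in macrophage-like cells. Rpa2 in proximal tubule-like cells passed 2-fold in 13 of 13 settings and Xrcc6 in macrophage-like cells in 13 of 13, while Xrcc5 in thick ascending limb-like cells passed in 7 of 11. In cycling cells of named classes, an alternative chosen after seeing the data, Chek2 and Palb2 reversed to log2 ratios of -0.081 and -0.15. The causes were not tested. For 17 pairs of class and setting too few cells were left in the class and no value was obtained. Among them were principal-like cells under 6 settings and thick ascending limb-like cells at 500 genes per cell. Leaving out the doublet filter takes no cell away, yet 0 non-cycling cells of either library were then named principal-like. In that setting 32 non-cycling I-PpoI cells were named thick ascending limb-like, against 139 in the main setting. The names of these classes thus depended on the processing. Wild-type macrophage-like and T cell-like cells limit what these depths can show.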
